A study of Mus musculus with 15 samples.

Results

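PD-1 is an inhibitory receptor that activated T cells display, and its ligand PD-L1 is made by tumour cells and by myeloid cells. Antibodies that block PD-1 remove this brake, and the best-known readouts of their action in tumours are CD8 T cells, interferon gamma and the genes that interferon gamma induces in neighbouring cells, such as those of antigen presentation. MC38 is a mouse colon adenocarcinoma cell line that is widely used in mice of its own strain to test such antibodies.

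The tumours compared here were 5 from mice given anti-PD-1 antibodies intravenously and 5 from mice given vehicle intravenously, chosen by these treatment labels among the 15 libraries of the series. The other 5 came from mice given anti-PD-1 together with BG136, a beta-1,3/1,6-glucan, and entered one alternative fit. All tumours were MC38 tumours labelled as wild type, profiled by strand-specific mRNA sequencing of tumour tissue. Host strain, age, antibody clone, dose and day of collection were not given in the sources used here, and nothing there says how many mice gave the 5 libraries of a group, so the tests below measure the spread between these libraries. Expression values are taken to be FPKM (sequenced fragments relative to transcript length and library total), and values listed for a group run from replicate 1 to replicate 5. Of 21851 genes in the table, 11053 reached 1 FPKM in at least 5 of the 10 libraries and were tested with limma on log2(FPKM + 1). A gene is called where its Benjamini-Hochberg adjusted p was under 0.05, and changes are anti-PD-1 minus vehicle on that log2 scale, ± SE, which understates the change of genes with low FPKM.

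Across libraries, FPKM summed to between 377509 and 393570, and between 10872 and 11214 genes reached 1 FPKM. Read counts are not in the table, so the depth is unknown. The most common ratio between low values put the libraries at 0.835 to 1.07 times the depth of vehicle replicate 1. Only low genes with a ratio in a limited range around 1 were used, so a large difference in depth could not have been found. Of the low genes used in each other library, 33.2% to 40.1% lay within 3% of the most common ratio. The first principal component held 46.1% of the variance and placed the anti-PD-1 libraries at 17.0, 19.7, 0.860, 11.9 and 11.8 and the vehicle libraries at -18.2, -10.0, -13.2, -2.45 and -17.4. Anti-PD-1 replicate 3 thus lay between the groups, and its highest rank correlation over genes, 0.991, was with vehicle replicate 4 rather than with a library of its own group. Most epithelial transcripts were low. Of 14 epithelial and keratin genes only 2, Cdh1 and Krt14, were tested, and 0 were called. The 14 genes summed to 3.72 to 32.9 FPKM in anti-PD-1 tumours and 4.60 to 10.7 FPKM in vehicle tumours. Cdx2 was listed at 0 in all 10 libraries, Krt20 reached at most 0.0710 FPKM in anti-PD-1 tumours and 0.0197 FPKM in vehicle tumours, and Epcam reached at most 2.46 FPKM in anti-PD-1 tumours and 0.965 FPKM in vehicle tumours.

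**Figure D1:**
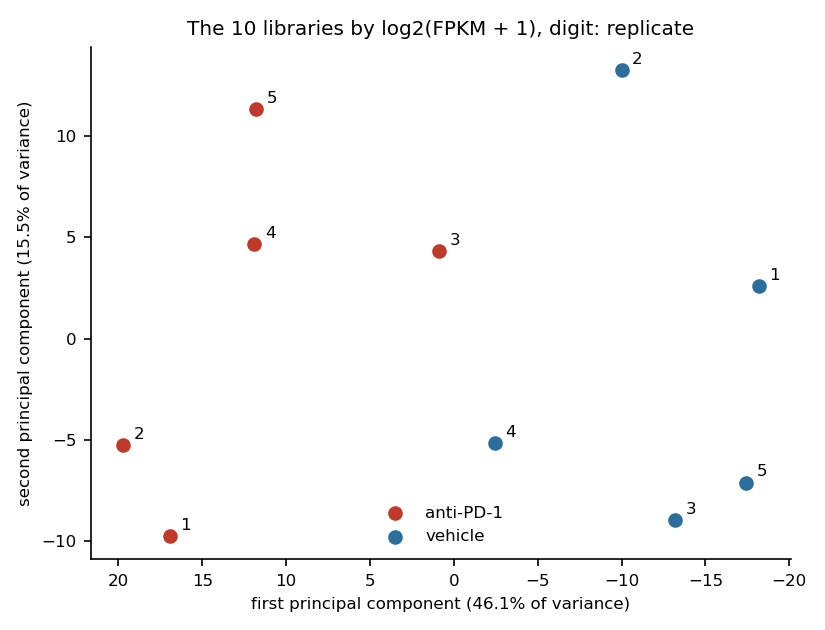
Principal components of the 10 libraries on log2(FPKM + 1) of the 11053 genes tested, with the first component on the horizontal axis (46.1% of the variance, axis reversed) and the second on the vertical axis (15.5%). Anti-PD-1 libraries are red and vehicle libraries blue, and anti-PD-1 replicate 3, at 0.860, lies closest to the vehicle libraries on the first component.

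Anti-PD-1 tumours differed from vehicle tumours in 2061 genes, 18.6% of those tested. Of these, 1098 genes (9.93% of those tested) were higher and 963 (8.71%) were lower. In 1531 genes (13.9%) the groups did not overlap, with all anti-PD-1 values above all vehicle values in 783 (7.08%) and below them in 748 (6.77%). Counts of calls and of genes without overlap in the lists below are to be read beside these shares. Most changes were small. The median change was 0.33 among genes called higher and -0.25 among genes called lower, against 0.0024 over all genes tested, and 43 genes rose and 13 fell by at least 2-fold. The split between higher and lower depended on the scaling, since quantile normalisation gave 955 higher and 1354 lower. Estimating the spread over all 15 libraries left 628 calls, 244 higher and 384 lower, all among the 2061. Leaving out 1 library in turn gave between 1447 calls, without anti-PD-1 replicate 5, and 2249, without anti-PD-1 replicate 3, and without vehicle replicate 3 only 625 genes were called lower. Genes are named below by a rule given with the processing. It took in 197 genes, of which 173 were called; 145 to 170 of these kept the call with 1 library left out, 86 kept it with all 15 libraries in the fit, and 61 were called in every setting that tested them; the setting that asks for a mean of at least 5 FPKM tested 149 of the 173.

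**Figure D2:**
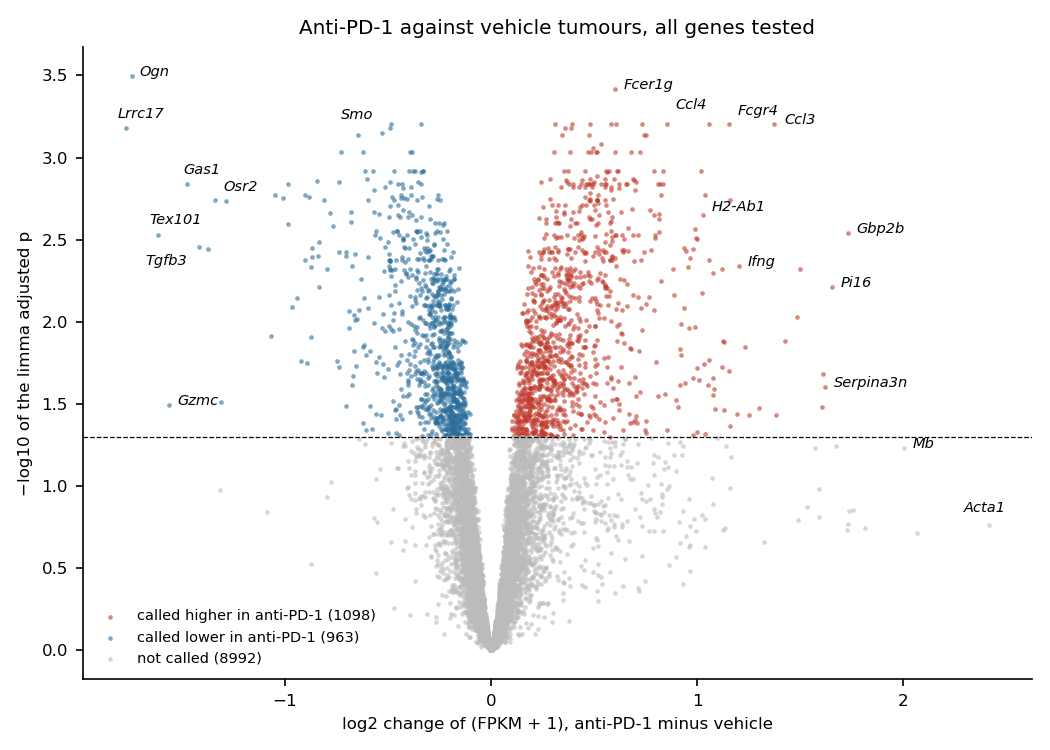
Each of the 11053 tested genes as a point, with its log2 change of (FPKM + 1), anti-PD-1 minus vehicle, on the horizontal axis and -log10 of its limma adjusted p on the vertical axis; the dashed line marks an adjusted p of 0.05. Ogn and Lrrc17 are the lowest labelled genes at -1.74 and -1.77, Gbp2b is the highest labelled gene past the line at 1.73, and the muscle genes Mb and Acta1 show larger changes (2.004 and 2.42) below the line.

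Fat and muscle genes varied widely within both groups and are given first, because they move with several results. The 11 tested adipocyte genes were all positive (median change 0.91) and none was called. Their summed level ran over 70.2 to 416 FPKM in anti-PD-1 tumours and 20.1 to 303 FPKM in vehicle tumours. Cfd, the fat-cell protease adipsin, had 92.9, 168, 34.4, 56.7 and 25.2 FPKM in anti-PD-1 tumours, against 3.52, 0.409, 47.8, 135 and 14.4 FPKM in vehicle tumours. The lowest values were in vehicle replicates 1 and 2, and vehicle replicate 4 was above 4 of the 5 anti-PD-1 tumours. The 15 skeletal muscle genes were likewise all positive (median 1.00) with none called, and summed to 72.9 to 255 FPKM in anti-PD-1 tumours and 32.4 to 286 FPKM in vehicle tumours. Acta1, skeletal muscle actin, had 11.8, 77.02, 48.6, 67.1 and 78.6 FPKM in anti-PD-1 tumours, against 14.8, 112, 0.196, 26.7 and 0.0575 FPKM in vehicle tumours, with its highest value in vehicle replicate 2 and near 0 in vehicle replicates 3 and 5. With the mean level of the adipocyte genes as a covariate 1028 genes were called, 546 higher and 482 lower. With that of the muscle genes 899 were called, 554 higher and 345 lower. Both fits were added after the data were seen. Counts under these 2 fits are given beside the main gene groups below and are to be read beside these smaller totals. List counts with all 15 libraries are to be read beside 244 higher and 384 lower. Each of these 3 fits tested 11053 genes. In bulk tissue fewer cells of a type and less RNA per cell cannot be told apart, which holds for every group that follows.

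T cell genes were higher in anti-PD-1 tumours. Of 16 tested genes of the T cell receptor complex, its co-receptors and its proximal kinases and adaptors, 10 were called higher and 0 lower, beside 9.93% called higher over all genes, and the median change was 0.43. Cd8a, which encodes the CD8 alpha chain of cytotoxic T cells, had 9.15, 9.96, 7.44, 9.68 and 10.3 FPKM in anti-PD-1 tumours, against 3.57, 5.67, 5.51, 5.16 and 4.596 FPKM in vehicle tumours. All anti-PD-1 values lay above all vehicle values, and the change was 0.81 ± 0.11 (limma adjusted p = 0.00145). Cd3g, a chain of the receptor's signalling module, averaged 12.9 ± 2.28 FPKM in anti-PD-1 tumours and 6.35 ± 1.74 FPKM in vehicle tumours (SD, n = 5 each), a change of 0.94 ± 0.16 (limma adjusted p = 0.00353). Cd8b1 rose by 0.73 and Lat, the adaptor that links the receptor to downstream signalling, by 0.61. Cd4, the co-receptor of helper T cells, had a range of 0.937 to 2.56 FPKM in anti-PD-1 tumours and 0.602 to 1.49 FPKM in vehicle tumours and was not called (limma adjusted p = 0.168). The count of 10 fell to 5 without any one of anti-PD-1 replicates 1, 2, 4 and 5 or vehicle replicate 5 and rose to 12 without anti-PD-1 replicate 3; it was 3 with the adipocyte covariate, 4 with the muscle covariate and 2 with the spread of all 15 libraries, while Cd8a and Cd3g were called in every setting that tested them.

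The target of the antibody and most other inhibitory receptors tested were higher as well. Pdcd1, which encodes PD-1, had 5.57, 6.88, 4.898, 6.81 and 7.97 FPKM in anti-PD-1 tumours, against 2.57, 4.39, 4.37, 4.04 and 2.25 FPKM in vehicle tumours. The groups did not overlap, anti-PD-1 replicate 3 was the lowest of its group, and the change was 0.73 ± 0.16 (limma adjusted p = 0.0113). Of 10 tested inhibitory receptors and ligands 8 were called higher, beside 9.93% over all genes, and 0 lower, with a median change of 0.61. Lag3, a receptor for MHC class II, rose by 0.69, Havcr2, which encodes TIM-3, by 0.64, Tigit by 0.75, and Vsir, which encodes VISTA, by 0.58. Entpd1, the ectoenzyme CD39, had 19.4, 19.6, 15.3, 19.9 and 24.1 FPKM in anti-PD-1 tumours, against 9.603, 8.58, 11.8, 12.7 and 12.1 FPKM in vehicle tumours. Its groups did not overlap either, and its change of 0.79 ± 0.12 (limma adjusted p = 0.00224) was called in every setting that tested it, as was that of Tigit. Cd274, which encodes PD-L1, had 30.4, 31.8, 31.6, 53.1 and 53.8 FPKM in anti-PD-1 tumours, against 28.7, 19.3, 24.6, 30.7 and 26.7 FPKM in vehicle tumours. Replicates 4 and 5 of the anti-PD-1 group were high and the other 3 lay at about the highest vehicle value; the change of 0.57 ± 0.18 sat at the threshold (limma adjusted p = 0.04998). That call was lost, at adjusted p values up to 0.103, without any one of anti-PD-1 replicates 2, 4 and 5 or vehicle replicates 1, 2, 3 and 5, and Pdcd1 lost its call with the muscle covariate (0.07196) and with all 15 libraries (0.0793). The list's count ranged from 6 to 9 with 1 library left out and was 6 and 5 with the adipocyte and muscle covariates and 2 with all 15 libraries.

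Among costimulatory and regulatory T cell genes, 4 of 8 tested were called higher, beside 9.93% over all genes, and 0 lower (median 0.43). These were Cd40 and Cd86, which antigen-presenting cells use to stimulate T cells, and Cd27 and Tnfrsf18, 2 receptors of the TNF receptor family on T cells. Cd40 averaged 7.54 ± 1.49 FPKM in anti-PD-1 tumours and 4.22 ± 0.9301 FPKM in vehicle tumours (SD, n = 5 each), a change of 0.71 ± 0.14 (limma adjusted p = 0.00705), without overlap. With all 15 libraries 0 of the 4 were called (adjusted p from 0.0798 for Cd40 to 0.114 for Cd86), and with the adipocyte covariate 2 were, without Cd27 and Tnfrsf18; the muscle covariate left 4. Cd27 was at 1.03 to 2.23 FPKM in anti-PD-1 tumours and 0.607 to 0.991 FPKM in vehicle tumours, so it passed the filter of 1 FPKM only through the group where it was high, and its call rests on that. Foxp3, the master factor of regulatory T cells, did not reach 1 FPKM in 5 libraries and was not tested.

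Effector genes of killer cells did not move as one. Of 17 tested cytotoxic granule and killer cell genes 6 were called higher and 1 lower, with a median change of 0.26. The shares over all genes were 9.93% and 8.71%. Ifng, which encodes interferon gamma, had 5.28, 5.3998, 4.72, 10.2 and 12.7 FPKM in anti-PD-1 tumours, against 2.64, 2.48, 2.41, 2.67 and 2.44 FPKM in vehicle tumours. Every anti-PD-1 value was above every vehicle value, replicates 4 and 5 stood well above the other 3 anti-PD-1 tumours, and the vehicle values were nearly equal; the change was 1.204 ± 0.22 (limma adjusted p = 0.00458). Nkg7, a granule membrane protein of cytotoxic lymphocytes, averaged 34.4 ± 6.48 FPKM in anti-PD-1 tumours and 19.003 ± 3.21 FPKM in vehicle tumours (SD, n = 5 each) and rose by 0.82 ± 0.13. Gzmk, a granzyme of early effector and memory-like CD8 T cells, had low levels of 1.68 to 3.02 FPKM in anti-PD-1 tumours and 0.325 to 1.34 FPKM in vehicle tumours and rose by 0.99 ± 0.16. Among vehicle tumours only replicate 3 reached 1 FPKM, so Gzmk passed the filter through the group where it was high. Its call was lost with all 15 libraries (limma adjusted p = 0.112). Fasl, the death ligand, rose by 0.44 ± 0.12, a call lost without anti-PD-1 replicate 4 or 5 or vehicle replicate 1 (limma adjusted p up to 0.0558). The list had 1 higher call with all 15 libraries, 3 with the adipocyte covariate and 6 with the muscle covariate.

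The abundant granzymes gave another picture. Gzmb, the main apoptosis-inducing granzyme, had 12.2, 18.7, 48.2, 52.8 and 48.9 FPKM in anti-PD-1 tumours, against 33.2, 18.4, 32.05, 30.5 and 35.2 FPKM in vehicle tumours. Anti-PD-1 replicate 1 was below the lowest vehicle tumour, replicate 2 was close to it and replicates 3, 4 and 5 were above the highest, and the difference was 0.09 ± 0.38 (limma adjusted p = 0.887). Gzmc, a granzyme of strongly stimulated mouse killer cells, had 9.45, 22.6, 51.3, 42.8 and 13.1 FPKM in anti-PD-1 tumours, against 87.1, 32.6, 88.1, 90.1 and 73.3 FPKM in vehicle tumours. It was the 1 gene of the list called lower, at -1.56 ± 0.44 (limma adjusted p = 0.03201), and lost the call without any one of anti-PD-1 replicates 1, 2 and 5 or vehicle replicates 1, 3, 4 and 5 (adjusted p up to 0.0744). Prf1, the pore-forming protein perforin, had a difference of 0.40 ± 0.22 and was not called (limma adjusted p = 0.226).

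Several chemokines were higher in anti-PD-1 tumours. Ccl3 and Ccl4, made by activated T cells and macrophages, had no overlap between groups. Ccl3 had 14.5, 14.6, 13.9, 19.8 and 13.9 FPKM in anti-PD-1 tumours, against 6.04, 5.67, 3.51, 5.64 and 5.78 FPKM in vehicle tumours. The change was 1.37 ± 0.13 (limma adjusted p = 0.000621). Ccl4 averaged 16.4 ± 2.55 FPKM in anti-PD-1 tumours and 7.35 ± 1.11 FPKM in vehicle tumours (SD, n = 5 each) and rose by 1.06 ± 0.11 (limma adjusted p = 0.000621), and both genes were called in every setting that tested them. Ccl5, a T cell chemokine, rose by 0.89 ± 0.18. Cxcr6, a receptor of tissue-resident and effector T cells, rose by 1.04 ± 0.15 and its ligand Cxcl16 by 0.52 ± 0.08, with no overlap for either. Ccl8, a monocyte attractant, had 265, 321, 167, 319.6 and 282 FPKM in anti-PD-1 tumours, against 69.5, 125, 136, 211 and 153 FPKM in vehicle tumours. It rose by 1.01 ± 0.26 with anti-PD-1 replicate 3 inside the vehicle range, and its call was lost without anti-PD-1 replicate 2 or 5 (limma adjusted p = 0.0524 and 0.05102).

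Of 19 chemokine ligands 7 were called higher and 0 lower (median 0.52), and of 9 chemokine receptors 2 were called higher, Cxcr6 among them. The share called higher over all genes was 9.93%. The count of 7 ligands fell to 4 without anti-PD-1 replicate 2 or replicate 5 and was 9 without anti-PD-1 replicate 3. It was 4 with either covariate and 2, Ccl3 and Ccl4, with all 15 libraries. The count of 2 receptors was 2 with either covariate and 0 with all 15 libraries. In that last fit Cxcr6, Cxcl16 and Ccl5 had limma adjusted p = 0.0581, 0.113 and 0.143. The CXCR3 ligands that interferon gamma induces were not called. Cxcl9 had 97.3 to 174 FPKM in anti-PD-1 tumours and 80.7 to 141 FPKM in vehicle tumours (change 0.31 ± 0.18, limma adjusted p = 0.243), and Cxcl10 had a difference of -0.05 ± 0.18. The ligands with the most negative differences, Xcl1 of activated killer cells (-0.78 ± 0.30) and the monocyte attractant Ccl12 (-0.57 ± 0.27), were not called either.

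**Figure D3:**
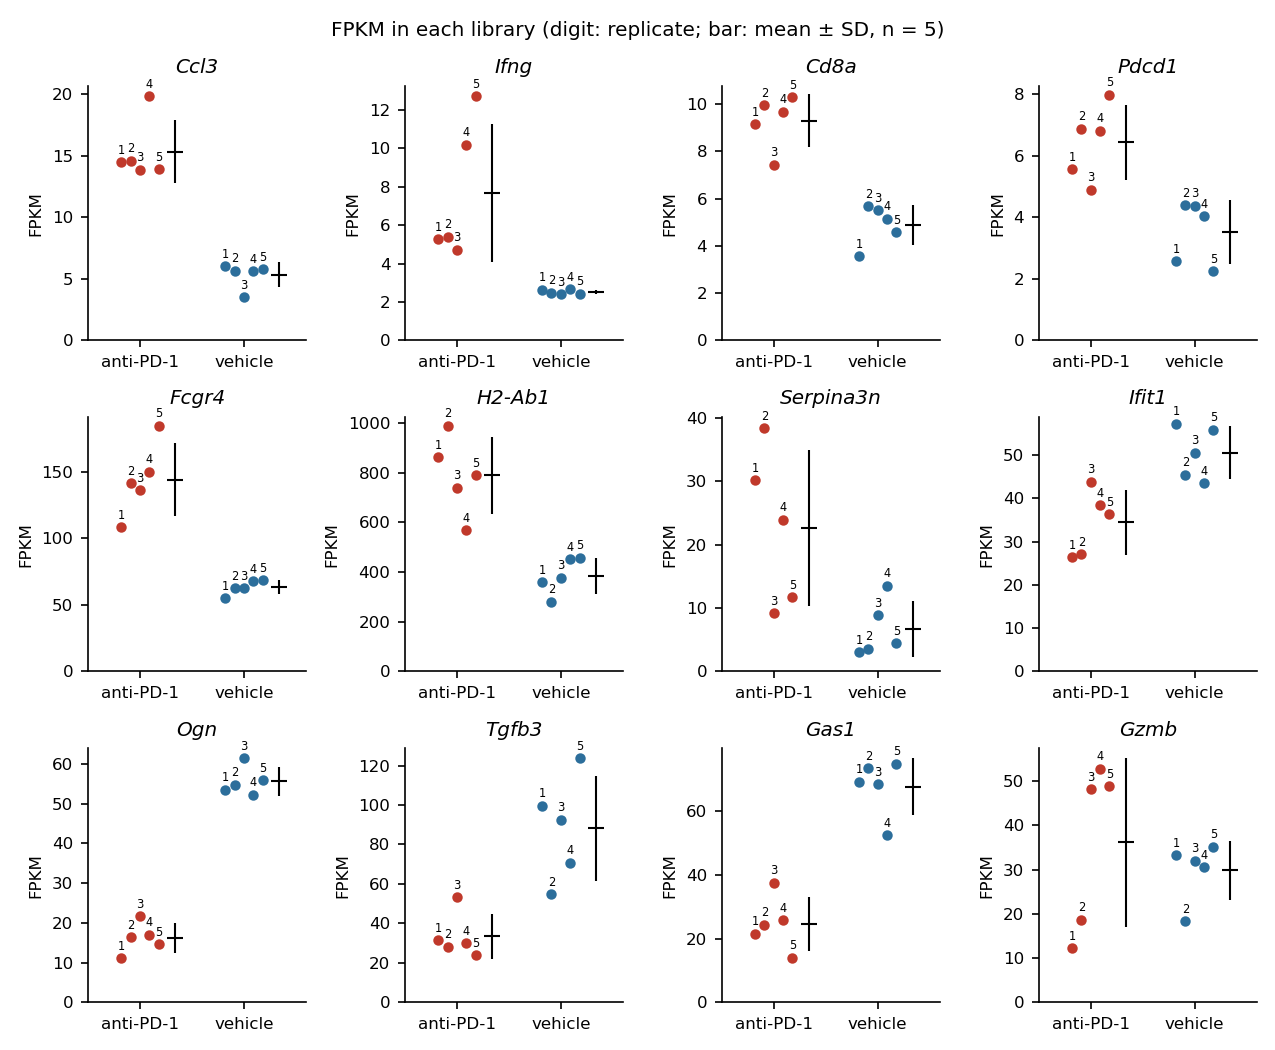
FPKM of 12 genes in each library, anti-PD-1 (red) left of vehicle (blue), with the replicate number at each point and the mean ± SD (n = 5) as a black bar. Ccl3, Ifng, Cd8a, Pdcd1, Fcgr4 and H2-Ab1 lie higher and Ogn, Tgfb3 and Gas1 lower in all 5 anti-PD-1 tumours, while Serpina3n, Ifit1 and Gzmb overlap.

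Calls in the 2 interferon programmes went in opposite directions. Type I interferons signal through ISGF3, a complex that binds the interferon-stimulated response element, while interferon gamma acts through another receptor and induces IRF1. Of 27 tested type I interferon stimulated genes, 25 had negative changes, 6 were called lower and 0 higher, beside 8.71% called lower over all genes, and the median change was -0.34. Ifit1, an antiviral protein that binds foreign RNA, had 26.4, 27.1, 43.9, 38.4 and 36.4 FPKM in anti-PD-1 tumours, against 57.3, 45.4, 50.5, 43.5 and 55.9 FPKM in vehicle tumours. Anti-PD-1 replicates 1 and 2 were lowest, replicate 3 was just above vehicle replicate 4, and the change was -0.56 ± 0.14 (limma adjusted p = 0.0175). Oas2, an enzyme that activates RNase L, had 10.4, 13.3, 19.96, 17.8 and 17.4 FPKM in anti-PD-1 tumours, against 23.3, 22.4, 25.5, 21.7 and 27.3 FPKM in vehicle tumours. Its groups did not overlap (change -0.61 ± 0.15, limma adjusted p = 0.0159). Ddx58, the cytosolic RNA sensor RIG-I, averaged 40.5 ± 4.49 FPKM in anti-PD-1 tumours and 54.6 ± 3.19 FPKM in vehicle tumours (SD, n = 5 each), a change of -0.43 ± 0.07 that was called in every setting that tested it.

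Among the 27 genes, 13 were called lower without anti-PD-1 replicate 3 and 10 without replicate 4, whose levels were closest to vehicle, and 4 was the lowest count with 1 library left out. With the adipocyte or the muscle covariate 1 remained called, beside 482 and 345 of 11053 genes called lower in these fits. With all 15 libraries 3 were called lower, beside 384 of 11053 genes. Isg15, one of the most abundant genes of the list, had 174 to 325 FPKM in anti-PD-1 tumours and 292 to 344 FPKM in vehicle tumours and was not called (limma adjusted p = 0.113).

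Of 24 tested genes of the interferon gamma response, including its guanylate-binding and immunity-related GTPases, 6 were called higher and 0 lower. The median was 0.24, and over all genes 9.93% were called higher. Gbp2b, a guanylate-binding protein, had 5.202, 10.4, 6.81, 7.22 and 19.2 FPKM in anti-PD-1 tumours, against 2.25, 1.47, 1.18, 2.51 and 2.698 FPKM in vehicle tumours. Every anti-PD-1 value was above every vehicle value, and the change of 1.73 ± 0.28 (limma adjusted p = 0.00289) was called in every setting that tested it; near-identical members of this family can share fragments, so its level is uncertain. Ciita, the factor that switches on MHC class II genes, averaged 5.66 ± 1.02 FPKM in anti-PD-1 tumours and 2.76 ± 0.471 FPKM in vehicle tumours (SD, n = 5 each) and rose by 0.82 ± 0.11. Nlrc5, its counterpart for MHC class I genes, rose by 0.36 ± 0.07 and Ido1, a tryptophan-degrading enzyme, by 1.08 ± 0.28, the last losing its call without vehicle replicate 5 (adjusted p = 0.0542). Irf1 (0.24 ± 0.09, limma adjusted p = 0.0785) was not called. Irf8, a factor of macrophages and dendritic cells, rose by 0.44 ± 0.13, a call lost without any one of anti-PD-1 replicates 2, 4 and 5 or vehicle replicates 1, 2 and 3 (adjusted p up to 0.0791). The count of 6 ranged from 4 to 7 with 1 library left out and was 3 with either covariate or all 15 libraries.

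Promoter stretches of a gene from each side are shown, since both responses are read through related elements. Sequences are from RefSeq on build GRCm38.p6, an earlier build than the one used for the expression values, and cover bases -150 to -31 from the annotated start on the gene's strand. Capitals mark matches to the core GAAANNGAAA on either strand.
Ifit1: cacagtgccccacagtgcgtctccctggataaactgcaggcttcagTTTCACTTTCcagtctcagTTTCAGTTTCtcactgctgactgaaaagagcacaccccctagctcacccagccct
Gbp2b: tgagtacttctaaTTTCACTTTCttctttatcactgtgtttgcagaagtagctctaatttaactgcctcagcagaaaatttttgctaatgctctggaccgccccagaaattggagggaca
The Ifit1 stretch (chr19:34640739-34640858, plus strand) holds matches starting at -104 and -85, and the Gbp2b stretch (chr3:142594697-142594816, plus strand) holds 1 at -137. Within 250 bases before the start, this core was present in 294 of 8573 tested genes with a promoter in the table (3.43%), in 34 of 847 genes called higher (4.01%) and in 26 of 751 called lower (3.46%). It was present in 11 of 22 type I interferon genes and in 9 of 15 interferon gamma genes, so both lists held it often, whichever way their calls went. A match describes letters in these windows and is not a measured site.

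Most MHC class II presentation genes rose. Of 10 tested genes 7 were called higher, beside 9.93% over all genes, and 1, H2-DMb2, was called lower, with a median of 0.69. H2-Ab1, the beta chain of the I-A molecule that shows peptides to CD4 T cells, had 863, 989, 739.7, 568 and 790.5 FPKM in anti-PD-1 tumours, against 359.9, 281, 378, 452 and 458 FPKM in vehicle tumours. The groups did not overlap, anti-PD-1 replicate 4 was lowest of its group, and the change was 1.03 ± 0.16 (limma adjusted p = 0.00224). Its partner H2-Aa rose by 0.97 ± 0.17, H2-Eb1 of the I-E molecule by 0.98 ± 0.17, and the invariant chain Cd74 by 0.94 ± 0.16. Cd74 was an abundant transcript, with 844 to 1625 FPKM in anti-PD-1 tumours and 476 to 724 FPKM in vehicle tumours. H2-DMb1 and H2-DMa, subunits of the peptide-loading factor, rose by 0.79 and 0.57, and the processing protease Ctss by 0.58. All 7 calls were made in each leave-one-out fit and with either covariate, and 4 were with all 15 libraries. H2-DMb2, the near copy of H2-DMb1, lost its call without any one of anti-PD-1 replicates 1, 4 and 5 or vehicle replicates 3, 4 and 5. It also lost it with the muscle covariate, with all 15 libraries and with a block for replicate number. Near copies can share fragments, so the levels of H2-DMb1 and H2-DMb2 are uncertain. H2-Aa, H2-Ab1, H2-Eb1 and H2-DMb1 were called in every setting that tested them.

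The class II genes are known to share an upstream module that ends in a Y box, bound by the factor NF-Y. Capitals in the same RefSeq windows, bases -150 to -31 on GRCm38.p6, mark matches to the Y box core CTGATTGG on either strand.
H2-Aa: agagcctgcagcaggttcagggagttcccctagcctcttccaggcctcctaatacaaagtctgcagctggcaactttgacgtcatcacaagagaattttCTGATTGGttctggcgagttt
H2-Eb1: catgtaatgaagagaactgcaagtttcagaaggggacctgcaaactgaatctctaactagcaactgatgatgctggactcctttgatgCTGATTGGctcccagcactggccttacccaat
The match in H2-Aa (chr17:34287854-34287973, minus strand) starts at -51 and that in H2-Eb1 (chr17:34305717-34305836, plus strand) at -62. Over 250 bases the core was in 3 of 8 class II genes with a promoter in the table (37.5%), beside 555 of 8573 tested genes (6.47%), 52 of 847 called higher (6.14%) and 48 of 751 called lower (6.39%). A promoter could be counted for both cores.

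Few MHC class I presentation genes were called. Of 19 tested genes 1 was called higher and 1 lower, beside 9.93% and 8.71% over all genes, and the median was 0.08. H2-K1 and H2-D1, the classical class I heavy chains, had differences of 0.08 ± 0.06 and 0.10 ± 0.06 and were not called, and B2m, their light chain, had 3039 to 3589 FPKM in anti-PD-1 tumours and 2808 to 3514 FPKM in vehicle tumours. H2-T23, the non-classical molecule Qa-1 that is the ligand of the NKG2A receptor, had 135, 152, 149.7, 172 and 196 FPKM in anti-PD-1 tumours, against 105, 86.5, 110.4, 121 and 119 FPKM in vehicle tumours. It rose without overlap by 0.56 ± 0.11 (limma adjusted p = 0.00623), and Klrc1, which encodes NKG2A, rose by 0.63 ± 0.14 with an overlap. H2-T23 and Klrc1 lost their calls with all 15 libraries (limma adjusted p = 0.109 and 0.136). Klrc1 also lost its call with the adipocyte covariate (limma adjusted p = 0.0593). The gene called lower, Calr, changed by -0.16 ± 0.05 and lost its call in the fits that leave out any library other than anti-PD-1 replicate 2 or vehicle replicate 1 (adjusted p up to 0.0996).

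Most macrophage markers rose. Of 20 tested macrophage and monocyte markers 12 were called higher, beside 9.93% over all genes, and 0 lower, with a median of 0.47. Fcgr4, an activating receptor for IgG, had 108, 142, 136, 150.2 and 185 FPKM in anti-PD-1 tumours, against 55.3, 62.6, 62.6, 67.97 and 68.6 FPKM in vehicle tumours. Its change of 1.16 ± 0.12 (limma adjusted p = 0.000621) came without overlap and was called in every setting that tested it. Fcer1g, the signalling chain shared by activating Fc receptors, had 292, 344, 324, 303 and 334 FPKM in anti-PD-1 tumours, against 202, 203, 216, 214 and 216 FPKM in vehicle tumours. It rose by 0.60 ± 0.05 (limma adjusted p = 0.000385), the smallest adjusted p among genes called higher, and lost its call with all 15 libraries (adjusted p = 0.0625) alone among the settings. The general macrophage markers rose by 0.38 ± 0.10 for the F4/80 gene Adgre1, 0.31 ± 0.08 for the growth factor receptor Csf1r and 0.38 ± 0.07 for Cd68. Mpeg1, which encodes a pore-forming protein of macrophages, rose by 0.52 ± 0.08 without overlap. Mrc1 (-0.02 ± 0.19) and Siglec1 (-0.15 ± 0.13) were not called. The count of 12 ranged from 10 to 14 with 1 library left out and was 9 and 10 with the adipocyte and muscle covariates, but 1 with all 15 libraries.

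Complement genes were higher beside these markers. Of 16 complement genes 10 were called higher, beside 9.93% over all genes, and 0 lower (median 0.51). C1qa, C1qb and C1qc, the 3 chains of the recognition molecule C1q, which tissue macrophages make, rose by 0.43, 0.51 and 0.50, each without overlap; C1qb had 632, 742, 685, 588 and 723 FPKM in anti-PD-1 tumours, against 443, 423, 507, 513 and 471 FPKM in vehicle tumours. Itgb2, the shared chain of the complement receptors CR3 and CR4, rose by 0.62 ± 0.08. Slc11a1, a metal transporter of phagosomes, had 27.8, 33.6, 27.2, 26.9 and 33.98 FPKM in anti-PD-1 tumours, against 15.8, 16.5, 16.9, 17.6 and 13.4 FPKM in vehicle tumours and rose by 0.86 ± 0.09 (limma adjusted p = 0.000621). Serping1, the inhibitor of C1 proteases, which stromal cells also make, rose by 1.23 ± 0.29 with an overlap between groups. The complement count ranged from 8 to 13 with 1 library left out and was 5 and 7 with the covariates and 1 with all 15 libraries.

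Both inflammatory and lipid-handling macrophage genes were among those higher. Of 13 pro-inflammatory and alternatively activated macrophage genes 4 were called higher, beside 9.93% over all genes, and 0 lower (median 0.54). Acod1, which makes itaconate in activated macrophages, had 14.6, 13.2, 10.4, 17.9 and 21.2 FPKM in anti-PD-1 tumours, against 6.56, 5.68, 6.54, 7.804 and 4.65 FPKM in vehicle tumours, without overlap, and rose by 1.16 ± 0.17 (limma adjusted p = 0.001802). Tnf averaged 5.81 ± 1.24 FPKM in anti-PD-1 tumours and 2.95 ± 0.394 FPKM in vehicle tumours (SD, n = 5 each) and rose by 0.77 ± 0.12, and Tgm2, a transglutaminase of alternatively activated macrophages, rose by 0.80 ± 0.13. These 3 genes were called in every setting that tested them. Of 14 lipid-associated macrophage genes 5 were called higher, led by Lgals3 (0.70 ± 0.09) and Cd9 (0.55 ± 0.11) and including Trem2 (0.33 ± 0.07), a lipid-sensing receptor. Of 13 sterol efflux and lipoprotein genes 4 were called higher: Abcg1 and Abca1, the cholesterol exporters, Nr1h3, which encodes the oxysterol receptor LXR alpha, and Mylip, an LXR target that degrades the LDL receptor. Abcg1 had 8.24, 8.296, 8.71, 8.45 and 8.97 FPKM in anti-PD-1 tumours, against 4.81, 4.75, 5.63, 4.92 and 3.75 FPKM in vehicle tumours, without overlap, and rose by 0.73 ± 0.07 (limma adjusted p = 0.000621). Of 24 sterol and fatty acid synthesis genes only Scd1 was called (0.69 ± 0.21), a call lost without any one of anti-PD-1 replicates 1, 2 and 4 or vehicle replicates 1, 2, 3 and 5, and the median was -0.06. Each fit that leaves out a library called 4 or 5 sterol efflux genes, the adipocyte and muscle covariates left 3 and 5, and with all 15 libraries there were 0. The lipid-associated list had 3 calls with the adipocyte covariate, 5 with the muscle covariate and 2 with all 15 libraries, and Trem2 lost its call in the first and the last of these fits (adjusted p = 0.0513 and 0.299).

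Dectin receptors recognise carbohydrates of fungi and signal through SYK, and dectin-1 is the known receptor for beta-glucans, although no glucan was given in either group compared here. Clec7a, which encodes dectin-1, had 19.5, 18.7, 10.4, 13.4 and 10.2 FPKM in anti-PD-1 tumours, against 14.2, 7.32, 18.2, 23.7 and 14.4 FPKM in vehicle tumours. The groups overlapped, with the highest and the lowest value both in vehicle tumours, at -0.06 ± 0.27 (limma adjusted p = 0.892). Of 15 tested dectin receptor and downstream genes 6 were called higher, beside 9.93% over all genes, and 0 lower (median 0.25). Among the 6 were Fcer1g, Plcg2 (0.37 ± 0.05), Pycard (0.55 ± 0.11), Tlr2 (0.37 ± 0.08) and Syk (0.52 ± 0.13). Syk, the kinase itself, is shared with Fc receptors. The list had 4 calls with the adipocyte covariate, 5 with the muscle covariate and 2 with all 15 libraries. Clec4d, a dectin-2 family receptor also used as a neutrophil marker, rose by 1.08 ± 0.29, a call lost without any one of anti-PD-1 replicates 1, 2 and 5 or vehicle replicates 2 and 5 (adjusted p up to 0.0617).

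Markers of other leukocytes had calls in both directions. Beside them, 9.93% of all genes were called higher and 8.71% lower. Of 9 tested dendritic cell genes 5 had positive changes, and the median was 0.03. None was called higher and 2 were called lower, the maturation-associated Fscn1 (-0.30 ± 0.05, without overlap) and Cacnb3 (-0.42 ± 0.10). Clec9a, a marker of cross-presenting dendritic cells, had a difference of 0.10 ± 0.10. Fscn1, an actin bundler, had 120.2, 115, 133, 122 and 110.5 FPKM in anti-PD-1 tumours, against 154, 149, 154, 139 and 143 FPKM in vehicle tumours. The whole dendritic list summed to 156 to 180 FPKM in anti-PD-1 tumours and 187 to 216 FPKM in vehicle tumours. Fscn1 thus made up most of that sum, and which cells made it was not tested. Of 15 neutrophil genes 7 were tested, of which 5 had positive changes (median 0.64). The calls were 2 higher, Csf3r (0.59 ± 0.09) and Clec4d, and 1 lower, Mmp9 (-1.07 ± 0.24), which is also in the matrix protease list. Mmp9 lost its call with the muscle covariate (limma adjusted p = 0.0766) and Csf3r with all 15 libraries (limma adjusted p = 0.204). Ly6g, the defining neutrophil antigen, was at 0 FPKM in all anti-PD-1 tumours and at most 0.0634 FPKM in vehicle tumours. The mast cell proteases Mcpt4 and Cma1 were the 2 of 7 tested mast cell and granulocyte genes called higher. Mcpt4 had 15.1, 15.02, 3.98, 11.1 and 12.8 FPKM in anti-PD-1 tumours, against 3.36, 5.33, 4.18, 7.25 and 1.37 FPKM in vehicle tumours, with anti-PD-1 replicate 3 inside the vehicle range, and rose by 1.25 ± 0.37. Both mast cell calls were lost without any one of anti-PD-1 replicates 1, 2, 4 and 5 or vehicle replicates 1, 3 and 5 (adjusted p up to 0.0798 for Mcpt4 and 0.0939 for Cma1), and 5 mast cell and granulocyte genes were called without anti-PD-1 replicate 3. The 3 tested B and plasma cell genes were not called, and the B cell antigens Ms4a1 and Cd79a stayed below 1 FPKM in all 10 libraries.

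Secreted proteins of the acute-phase response had large rises and a wide spread. Of 13 tested genes 7 were called higher, beside 9.93% over all genes, and 0 lower, with a median of 0.86. Lbp, which hands bacterial lipopolysaccharide to CD14, had 9.68, 8.48, 3.29, 6.21 and 4.54 FPKM in anti-PD-1 tumours, against 0.651, 1.68, 1.94, 2.78 and 0.956 FPKM in vehicle tumours. Its groups did not overlap and its change of 1.499 ± 0.27 (limma adjusted p = 0.00475) was called in every setting that tested it. Serpina3n, a serine protease inhibitor, had 30.2, 38.3, 9.24, 23.9 and 11.7 FPKM in anti-PD-1 tumours, against 2.995, 3.58, 8.9001, 13.5 and 4.49 FPKM in vehicle tumours. Anti-PD-1 replicates 3 and 5 were inside the vehicle range, and the change of 1.62 ± 0.43 (limma adjusted p = 0.024995) lost its call without any one of anti-PD-1 replicates 1, 2 and 4 or vehicle replicates 1, 2 and 5 (adjusted p up to 0.0598). Gpx3, the secreted glutathione peroxidase, had 81.6, 90.3, 35.5, 46.2 and 33.9 FPKM in anti-PD-1 tumours, against 14.6, 23.7, 17.7, 29.4 and 11.03 FPKM in vehicle tumours and rose by 1.49 ± 0.32; it lost its call with the muscle covariate (0.0609).

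The acute-phase and adipocyte lists are set side by side here. The mean level of the acute-phase list stood 1.27, 1.37, 0.38, 0.98 and 0.71 in anti-PD-1 replicates 1 to 5, against -0.43, -0.49, 0.35, 0.65 and -0.08 in vehicle replicates 1 to 5, and that of the adipocyte list stood 1.37, 2.02, 0.63, 1.02 and -0.0036 in anti-PD-1 replicates 1 to 5, against -0.99, -1.17, 0.45, 1.67 and 0.04 in vehicle replicates 1 to 5, both on the log2 scale relative to the vehicle mean. Hp, which encodes haptoglobin and belongs to the acute-phase list, had 112, 183, 75.7, 95.2 and 34.6 FPKM in anti-PD-1 tumours, against 12.05, 2.27, 55.2, 133 and 40.7 FPKM in vehicle tumours and was not called. With the adipocyte covariate 5 of the 7 calls were made and with the muscle covariate 3; the part of fat or muscle tissue in these changes was otherwise not tested. Serpina3f, a further serpin, rose by 0.79 ± 0.17 without overlap and Ptx3, a pentraxin made by stromal and myeloid cells, by 1.06 ± 0.26. Ptx3 lost its call with the adipocyte and the muscle covariate (limma adjusted p = 0.0813 and 0.0720). Socs3, the feedback inhibitor of IL-6 family signalling, rose by 0.56 ± 0.11, and it and Serpina3f were called in every setting that tested them.

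**Figure D4:**
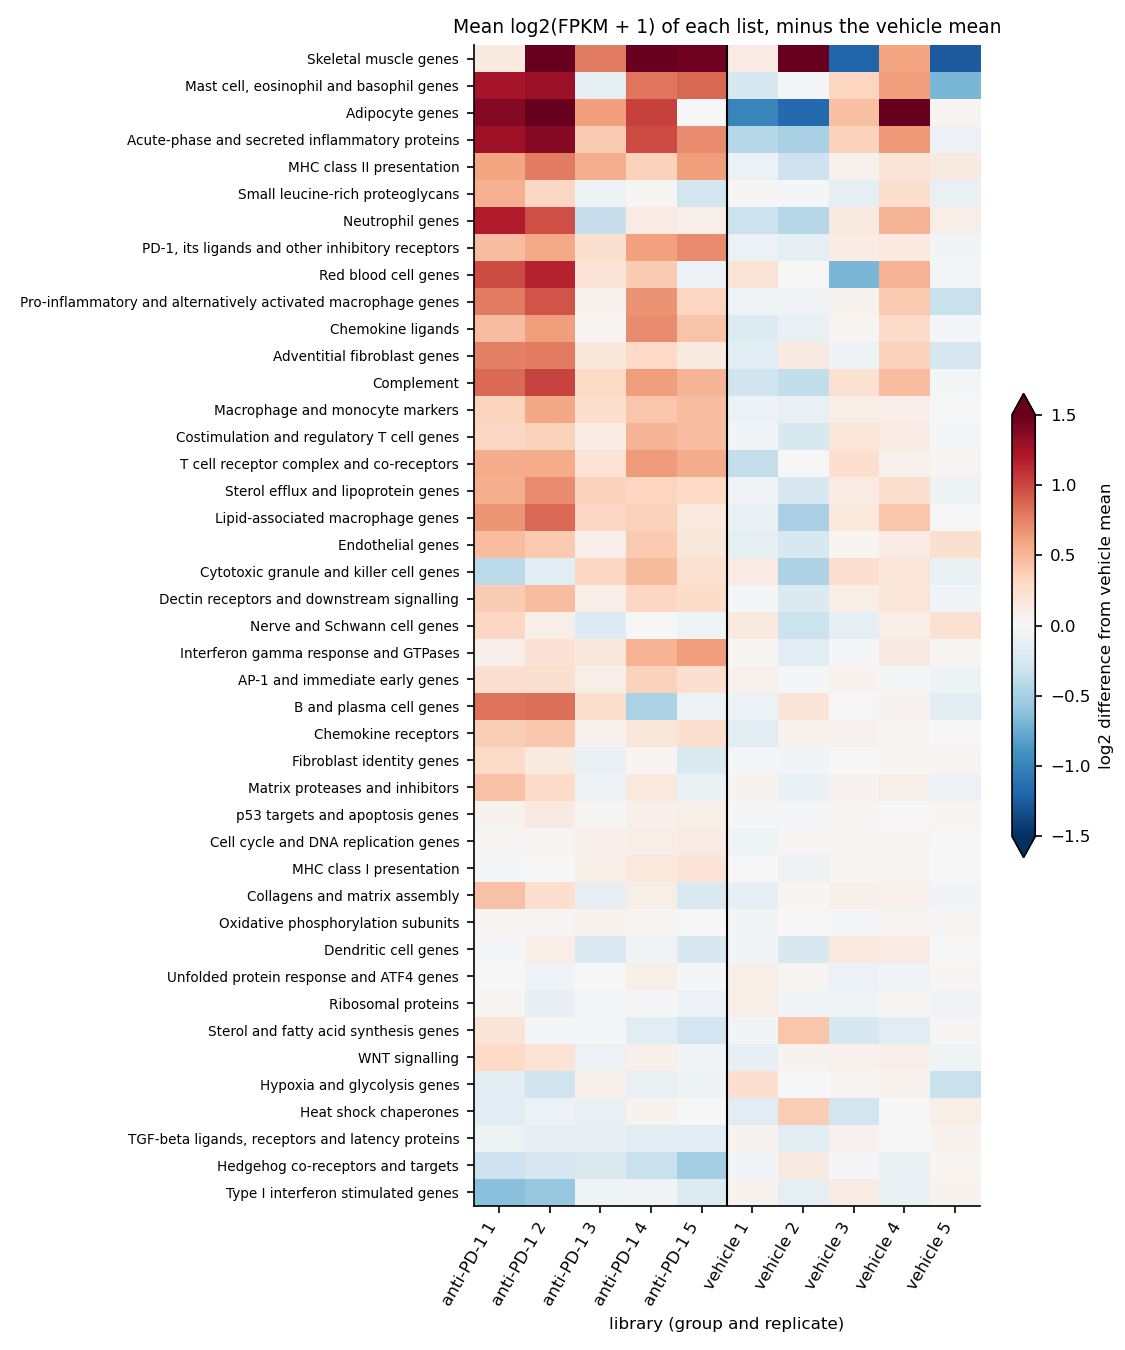
Mean log2(FPKM + 1) of each gene list in each library minus the mean of the vehicle libraries, red higher and blue lower, with anti-PD-1 replicates 1 to 5 left of vehicle replicates 1 to 5 and colours capped at 1.5. MHC class II is red in all 5 anti-PD-1 tumours, type I interferon stimulated genes are blue mainly in replicates 1 and 2, and the muscle and adipocyte lists vary in both groups.

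Several matrix and stromal genes fell in all 5 anti-PD-1 tumours. Ogn, which encodes the small leucine-rich proteoglycan osteoglycin, had 11.2, 16.4, 21.7, 17.1 and 14.7 FPKM in anti-PD-1 tumours, against 53.5, 54.8, 61.5, 52.3 and 55.97 FPKM in vehicle tumours. The highest anti-PD-1 value, in replicate 3, was far below the lowest vehicle value, and the change of -1.74 ± 0.13 (limma adjusted p = 0.000317) had the smallest adjusted p of all genes tested. Aspn, a relative that binds TGF-beta, had 14.97, 11.2, 13.6, 11.6 and 7.89 FPKM in anti-PD-1 tumours, against 34.6, 20.3, 32.5, 25.3 and 39.98 FPKM in vehicle tumours and fell without overlap (change -1.29 ± 0.19, limma adjusted p = 0.00184). Others of the family moved the other way. Of 8 tested small leucine-rich proteoglycans 2 were called lower, beside 8.71% over all genes. Another 2, Prelp (0.98 ± 0.25) and Podn (0.85 ± 0.23), were called higher, beside 9.93% over all genes. Neither of these 2 held its call without any one of anti-PD-1 replicate 2 and vehicle replicates 1, 3 and 5, and Podn also lost it without anti-PD-1 replicate 1 or 4 (adjusted p up to 0.0542 for Prelp and 0.0648 for Podn). Lrrc17, a secreted leucine-rich repeat protein, averaged 10.1 ± 3.52 FPKM in anti-PD-1 tumours and 36.2 ± 6.33 FPKM in vehicle tumours (SD, n = 5 each), the largest fall among the named genes at -1.77 ± 0.19 (limma adjusted p = 0.0006598). Tex101, a surface glycoprotein known from germ cells, had 10.7, 24.7, 22.4, 27.8 and 11.2 FPKM in anti-PD-1 tumours, against 68.1, 39.99, 69.5, 56.8 and 56.9 FPKM in vehicle tumours, without overlap, at -1.62 ± 0.26. Ogn, Aspn, Lrrc17 and Tex101 were called in every setting that tested them.

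TGF-beta signalling genes fell more often than they rose. Of 19 tested genes 6 were called lower, beside 8.71% over all genes, and 1 higher, beside 9.93%, with a median of -0.19. Tgfb3, a ligand, had 31.7, 28.2, 53.4, 30.1 and 23.8 FPKM in anti-PD-1 tumours, against 99.7, 54.9, 92.5, 70.7 and 124 FPKM in vehicle tumours. The highest anti-PD-1 value, in replicate 3, was just under the lowest vehicle value, in replicate 2, and the change was -1.38 ± 0.23 (limma adjusted p = 0.00358). Ltbp3, which holds the latent ligand in the matrix, fell at -0.57 ± 0.09, the co-receptor Tgfbr3 at -0.37 ± 0.06 and the type II receptor Tgfbr2 at -0.35 ± 0.11. The signal transducer Smad3 changed by -0.33 ± 0.08, a call lost without vehicle replicate 3 (adjusted p = 0.0501), when 3 of the 6 calls were made. Tgfb1, the most widely expressed ligand, had a difference of 0.08 ± 0.06 and was not called. The 1 gene called higher, Tgfbi, a matrix protein induced by TGF-beta and also made by macrophages, rose by 0.38 ± 0.09 and lost its call with the muscle covariate and with all 15 libraries. The 6 lower calls numbered 4 with the adipocyte covariate, 3 with the muscle covariate and 4 with all 15 libraries.

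Collagen genes had calls in both directions. Of 24 tested collagen and matrix assembly genes 6 were called lower, beside 8.71% of all genes, and 3 higher, a share near the 9.93% of all genes (median 0.06). With either covariate or all 15 libraries 4 were called lower. Col3a1, a fibrillar collagen of loose stroma, had 688, 679.6, 666, 575 and 427 FPKM in anti-PD-1 tumours, against 914, 1014, 949.8, 792 and 865 FPKM in vehicle tumours, without overlap, at -0.60 ± 0.12 (limma adjusted p = 0.00819). Fn1, which encodes fibronectin, averaged 422 ± 106 FPKM in anti-PD-1 tumours and 663 ± 27.4 FPKM in vehicle tumours (SD, n = 5 each) and changed by -0.69 ± 0.14; Col5a1 and Col16a1 changed by -0.49 ± 0.09 and -0.42 ± 0.08. These 4 genes were called in every setting that tested them. Col1a1 and Col1a2, the chains of type I collagen, were among the 3 called higher. Col1a2 had 268, 179, 73.5, 137 and 88.8 FPKM in anti-PD-1 tumours, against 46.3, 76.9, 71.7, 76.8 and 48.8 FPKM in vehicle tumours, with anti-PD-1 replicate 3 inside the vehicle range, and its call was lost without any one of anti-PD-1 replicates 1, 2 and 4 or vehicle replicates 1, 3 and 5 (adjusted p up to 0.07796). None of the 3 calls was made without anti-PD-1 replicate 1 or 2 or vehicle replicate 1, 3 or 5, nor with either covariate, and 6 collagen genes were called higher without anti-PD-1 replicate 3.

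Fibroblast markers had calls in both directions too, beside 9.93% called higher and 8.71% called lower over all genes. Pdgfra, the growth factor receptor that marks fibroblasts, had 12.5, 13.8, 14.8, 14.5 and 8.56 FPKM in anti-PD-1 tumours, against 26.1, 21.98, 27.2, 21.96 and 24.2 FPKM in vehicle tumours. The fall without overlap was -0.89 ± 0.13 (limma adjusted p = 0.00174). Osr2, a transcription factor of connective tissue, had 16.7, 20.6, 33.6, 18.7 and 13.8 FPKM in anti-PD-1 tumours, against 45.4, 60.5, 54.6, 42.1 and 57.9 FPKM in vehicle tumours and changed by -1.34 ± 0.19. Pi16, the marker of adventitial fibroblasts around vessels, had 16.005, 11.6, 5.26, 5.65 and 5.603 FPKM in anti-PD-1 tumours, against 1.23, 2.76, 2.04, 3.2997 and 0.735 FPKM in vehicle tumours. It rose without overlap by 1.65 ± 0.32 (limma adjusted p = 0.00617), yet Dpt, another gene used for such fibroblasts, fell at -0.88 ± 0.20. Of 15 fibroblast identity genes 4 were called higher and 3 lower, and of 15 adventitial genes 5 were higher and 2 lower. With either covariate these higher calls numbered 0 and 2. Of the 4 fibroblast calls 1 was made without anti-PD-1 replicate 5 or vehicle replicate 1 or 5 and 2 without anti-PD-1 replicate 2 or 4 or vehicle replicate 2. Of the 5 adventitial calls 2 were made without vehicle replicate 3 and 3 without anti-PD-1 replicate 1 or 2 or vehicle replicate 5. Among matrix proteases and their inhibitors, Mmp11, a stromal metalloproteinase, fell without overlap (-0.60 ± 0.09), Timp3, a metalloproteinase inhibitor, rose without overlap (0.99 ± 0.22), and Mmp3, stromelysin, rose by 1.604 ± 0.46. Mmp3 lost its call without any one of anti-PD-1 replicates 1, 2 and 4 or vehicle replicates 1, 2 and 5 (adjusted p up to 0.0768). It also lost its call with the adipocyte and muscle covariates (limma adjusted p = 0.144 and 0.108), and Timp3 lost its call with the adipocyte covariate (limma adjusted p = 0.0558). Of 21 tested genes of this list 3 were called higher and 2 lower. The higher count was 1 with either covariate and 7 without anti-PD-1 replicate 3.

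Further large falls were found in genes of varied function. Enpp2, which encodes autotaxin, the enzyme that makes lysophosphatidic acid, had 1.31, 1.21, 2.08, 0.8698 and 0.552 FPKM in anti-PD-1 tumours, against 7.94, 2.56, 4.87, 3.74 and 5.94 FPKM in vehicle tumours. The groups did not overlap, and the change was -1.42 ± 0.24 (limma adjusted p = 0.003498). F3, which encodes tissue factor, the trigger of coagulation, had 18.8, 17.4, 35.8, 20.4 and 14.7 FPKM in anti-PD-1 tumours, against 47.96, 41.8, 38.7, 33.6 and 39.8 FPKM in vehicle tumours. Anti-PD-1 replicate 3 reached into the vehicle range and the other 4 lay below it (change -0.94 ± 0.19, limma adjusted p = 0.007195). Nr2f1, an orphan nuclear receptor, and Medag, a gene of fat cell differentiation, changed by -1.05 ± 0.15 and -0.98 ± 0.16 without overlap. Matn2, a matrix adaptor protein, averaged 56.1 ± 15.8 FPKM in anti-PD-1 tumours and 102 ± 14.3 FPKM in vehicle tumours (SD, n = 5 each), and Sdc2, a heparan sulfate proteoglycan, averaged 77.1 ± 14.9 FPKM in anti-PD-1 tumours and 131 ± 16.5 FPKM in vehicle tumours (SD, n = 5 each). Both fell without overlap, at -0.88 ± 0.16 and -0.77 ± 0.12, and these 6 genes were called in every setting that tested them. Mfap4, an elastic fibre protein, fell at -1.31 ± 0.37, a call lost without any one of anti-PD-1 replicates 2, 4 and 5 or vehicle replicates 1, 3 and 5 (adjusted p up to 0.0725).

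Some of the large rises were less even across libraries. Clec3b, which encodes tetranectin, had 15.8, 16.2, 4.14, 8.37 and 6.87 FPKM in anti-PD-1 tumours, against 1.55, 1.96, 1.598, 7.85 and 1.37 FPKM in vehicle tumours. Vehicle replicate 4 lay inside the anti-PD-1 range, and the change of 1.61 ± 0.41 (limma adjusted p = 0.0206) was lost without vehicle replicate 3 or 5 (adjusted p up to 0.05202). Rarres2, which encodes the chemoattractant adipokine chemerin, had 22.6, 27.7, 9.23, 19.4 and 8.89 FPKM in anti-PD-1 tumours, against 2.56, 3.32, 10.5, 11.2 and 4.41 FPKM in vehicle tumours. Its change of 1.38 ± 0.41 was lost without any one of anti-PD-1 replicates 1, 2 and 4 or vehicle replicates 1, 2 and 5 (adjusted p up to 0.0831). Cxcl14, a chemokine of stromal cells, had 31.1, 37.4, 11.4, 19.9 and 16.6 FPKM in anti-PD-1 tumours, against 5.32, 11.9, 9.41, 16.4 and 5.07 FPKM in vehicle tumours, and its change of 1.19 ± 0.35 was lost without any one of anti-PD-1 replicates 1, 2, 4 and 5 or vehicle replicates 1, 3 and 5 (adjusted p up to 0.0837). All 3 lost their calls with either covariate. With the adipocyte covariate the change was 1.01 for Clec3b, 0.67 for Rarres2 and 0.77 for Cxcl14.

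Several hedgehog pathway genes fell. Smo, the membrane protein that passes the signal into the cell, had 30.3, 31.04, 33.5, 32.02 and 30.04 FPKM in anti-PD-1 tumours, against 47.6, 41.6, 45.2, 41.2 and 46.6 FPKM in vehicle tumours. Its values were tight within both groups, and the change was -0.49 ± 0.05 (limma adjusted p = 0.000621). Gas1, a co-receptor for hedgehog ligands, had 21.6, 24.4, 37.5, 25.9 and 14.05 FPKM in anti-PD-1 tumours, against 69.2, 73.6, 68.4, 52.5 and 74.9 FPKM in vehicle tumours, a change of -1.47 ± 0.20 (limma adjusted p = 0.00145). Gli3 and Sufu, which restrain target genes, changed by -0.24 ± 0.06 and -0.17 ± 0.04. Thus 4 of 7 tested genes were called lower, beside 8.71% over all genes, and 0 higher. All 4 fell without overlap, beside 6.77% over all genes. With the adipocyte covariate 3 of them were called, and with the muscle covariate or all 15 libraries 2, Gas1 and Smo; Gli3 lost its call in all 3 fits. The direct targets Gli1 (0.15 ± 0.18) and Ptch1 (0.17 ± 0.08) were not called. Of 15 WNT pathway genes 4 were called lower, beside 8.71% over all genes, and 0 higher. The first of the 4 was Wnt5a, a ligand of non-canonical signalling, at -0.31 ± 0.05 without overlap. Lrp6 and Lef1, the canonical co-receptor and transcription factor, lost their calls without any one of anti-PD-1 replicates 1 and 5 and vehicle replicates 1, 3 and 5. Lrp6 also lost its call without anti-PD-1 replicate 3, and Lef1 without anti-PD-1 replicate 2. With either covariate 1 of the 4 WNT calls was made.

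**Figure D5:**
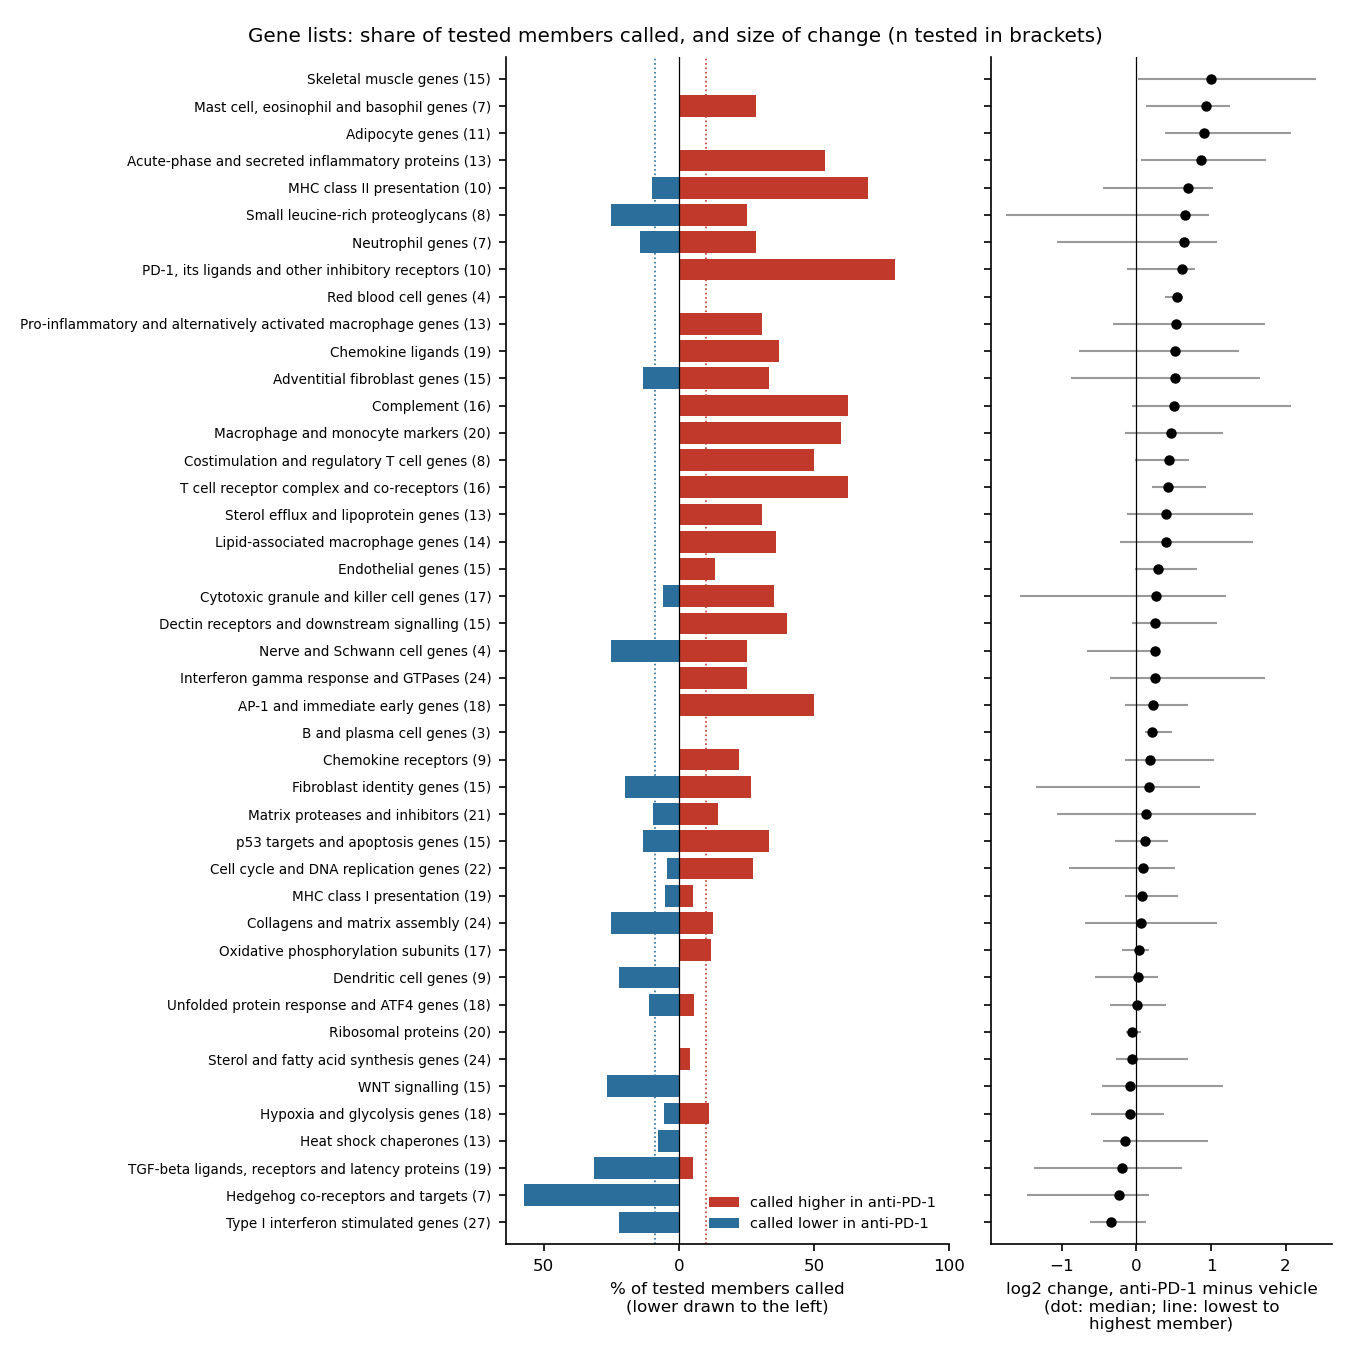
Left, the share of each list's tested members called higher (red, to the right) or lower (blue, to the left) in anti-PD-1 tumours, with dotted lines at the shares over all genes, 9.93% and 8.71%; right, the median log2 change of the tested members (dot) and their range (line). PD-1 and other inhibitory receptors have 8 of 10 members called higher and hedgehog genes 4 of 7 called lower, while muscle and adipocyte lists have high medians and no calls.

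Calls among growth and stress genes were mostly of small changes. For comparison, 9.93% of all genes were called higher and 8.71% lower. Of 22 cell cycle genes 6 were called higher and 1 lower (median 0.08). Ccnd1, the cyclin that starts the cycle, had 199.9, 198, 177, 199.9 and 228 FPKM in anti-PD-1 tumours, against 152, 143, 133, 147 and 121 FPKM in vehicle tumours, without overlap, and rose by 0.52 ± 0.07; Rrm2, which makes deoxynucleotides, rose by 0.33 ± 0.06. The count of 6 was 3 without anti-PD-1 replicate 5 and 2 with either covariate. Haus7, a subunit of the spindle complex augmin, fell at -0.91 ± 0.16. Of 18 AP-1 and immediate early genes 9 were called higher and 0 lower, among them Fos (0.69 ± 0.14), Fosb (0.64 ± 0.11), Klf4 (0.40 ± 0.05) and Zfp36 (0.55 ± 0.09), and of these 9 calls 5 were made with either covariate. Of 15 p53 target and apoptosis genes 5 were higher (4 with the adipocyte covariate, 2 with the muscle covariate and 2 with all 15 libraries), including Mdm2 (0.24 ± 0.06) and Mcl1 (0.24 ± 0.05), and 2 were lower, among them the initiator caspase Casp8 (-0.22 ± 0.05).

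The stress, hypoxia, ribosomal, oxidative phosphorylation and endothelial lists had counts of calls near or below the shares over all genes. These shares were 9.93% called higher and 8.71% called lower. Of 18 tested genes of the unfolded protein response 1 was called higher and 2 lower (median 0.01). Those called lower were the endoplasmic reticulum chaperones Pdia4 (-0.36 ± 0.05) and Hsp90b1 (-0.26 ± 0.05), both without overlap and called in every setting that tested them. Pdia4, a disulfide isomerase, had 62.95, 70.8, 64.3, 63.6 and 63.7 FPKM in anti-PD-1 tumours, against 80.1, 87.7, 89.4, 79.6 and 81.02 FPKM in vehicle tumours. Of 18 hypoxia and glycolysis genes 15 had negative changes (median -0.09) and 3 were called. Ddit4, an mTORC1 inhibitor induced by hypoxia and stress, fell without overlap (-0.54 ± 0.09), while the glycolytic enzymes Pfkp (0.32 ± 0.07) and Pfkfb3 (0.38 ± 0.09) rose. Both rises lost their calls with the muscle covariate (limma adjusted p = 0.0696 and 0.0656). Pfkfb3 also lost its call with the adipocyte covariate, and Pfkfb3 and Ddit4 lost theirs with all 15 libraries. Without vehicle replicate 5, 4 of the 18 genes were called lower. Of 20 ribosomal protein genes 0 were called (median -0.06), and 3 had an unadjusted limma p under 0.05. Of 13 heat shock chaperones 1 was called, Hspa1a (-0.45 ± 0.11), which passed the filter only through the vehicle group, and 3 were called lower without vehicle replicate 1. Among 17 oxidative phosphorylation subunits the calls were Sdhb (0.17 ± 0.05) and Cox5a (0.13 ± 0.04), and 0 were made without any one of anti-PD-1 replicates 4 and 5 or vehicle replicates 1 and 5. Of 15 endothelial genes 14 had positive changes (median 0.29). Of these 2 were called higher, the adhesion molecule Icam1 (0.57 ± 0.12) and the TGF-beta co-receptor Eng (0.37 ± 0.06), both without overlap. The count was 5 without vehicle replicate 5, 2 with the adipocyte covariate, 4 with the muscle covariate and 0 with all 15 libraries. In that last fit Icam1 and Eng had limma adjusted p = 0.125 and 0.240.

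The 5 anti-PD-1 tumours differed among themselves. On the mean of the interferon gamma list they stood at 0.08, 0.21, 0.16, 0.52 and 0.63 in anti-PD-1 replicates 1 to 5, against 0.03, -0.17, -0.02, 0.14 and 0.02 in vehicle replicates 1 to 5, so replicates 4 and 5 were highest. On the type I interferon list they stood at -0.63, -0.57, -0.06, -0.04 and -0.20 in anti-PD-1 replicates 1 to 5, against 0.06, -0.14, 0.12, -0.10 and 0.06 in vehicle replicates 1 to 5, with replicates 1 and 2 lowest. The cytotoxic list stood at -0.40, -0.16, 0.31, 0.47 and 0.22 in anti-PD-1 replicates 1 to 5, against 0.12, -0.46, 0.26, 0.18 and -0.10 in vehicle replicates 1 to 5, where replicates 1 and 2 were again the lowest of the anti-PD-1 group. MHC class II was raised in all 5, at 0.60, 0.78, 0.54, 0.35 and 0.63 in anti-PD-1 replicates 1 to 5, against -0.09, -0.32, 0.07, 0.20 and 0.14 in vehicle replicates 1 to 5. The spread of single genes was similar in the 2 groups, with a median SD of log2 values of 0.0948 in anti-PD-1 tumours and 0.0903 in vehicle tumours, and 53.9% of genes had the larger SD in the anti-PD-1 group. Retnla, a secreted product of alternatively activated macrophages that fat tissue also makes, had the widest spread among anti-PD-1 tumours, with 30.5, 67.2, 2.599, 7.21 and 0.5098 FPKM in anti-PD-1 tumours, against 1.96, 1.12, 1.601, 5.27 and 1.36 FPKM in vehicle tumours, and anti-PD-1 replicates 1 and 2 far above the rest.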

How the data were processed

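The submitters' processing notes name Trimmomatic, HISAT2, Cufflinks, HTSeq and DESeq, with no roles or versions, and the genome build GRCm39. Per the labels' protocols, libraries were TruSeq Stranded mRNA libraries of RNA from tumour tissue. The deposited table holds 1 value per gene and library and names the values only as expression; they are taken here as FPKM made by the authors, from their range, their sums and the use of Cufflinks. Counts are not in the table, so depth per library is known only as a ratio of low values, and the number of libraries limits the precision.

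Columns were matched to samples by the column names in the labels; the column of vehicle replicate 1 has another prefix than the other vehicle columns, and its meaning is not given. Of 21878 entries, 27 whose gene symbols had been turned into dates were left out; they held at most 0.168% of a library's sum. A gene was tested where 5 or more of the 10 libraries reached 1 FPKM. Among the genes let in, 7 reached 1 FPKM in all anti-PD-1 libraries and in no vehicle library, and 6 the other way round. All of these were called, and Cd27 and Hspa1a are the list members among them. Genes such as Gzmk, with a vehicle library at 1 FPKM, are not in this count. The test was limma 3.58.1, run in R 4.3.3 on log2(FPKM + 1), with a mean-variance trend and Benjamini-Hochberg adjustment over all 11053 genes, and the spread came from these 10 libraries alone. On simulated data of 11053 genes for this comparison, 63 of 67 genes changed 1.5-fold, 67 of 67 changed 2-fold and 66 of 66 changed 4-fold were recovered, and 5.31% of calls were false. Few genes were changed there, and each gene varied on its own, without the variation that genes of a library share. The simulated share of false calls therefore does not describe the calls made here. Figures were drawn with matplotlib 3.10.9.

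The 45 gene lists hold 746 distinct members, of which 731 matched by symbol and 2 by an older name, and 614 were tested. The comparison, the lists and the rule for naming genes were chosen with earlier results of these data known. The rule took the 15 largest rises and falls among called genes of at least 5 FPKM, the 10 smallest p, the 8 largest rises and falls among genes of at least 100 FPKM, up to 5 called members of each list by p (2 where none was called), 13 genes of known interest and the 5 genes of widest spread in each group. List members named beyond it, such as H2-DMb2, Adgre1, Csf1r, Cd68, Tgfbr2, Col1a1 and the members named as not called, were chosen after their values were seen. Replicate numbers did not pair the samples. Other pseudocounts, filters, scalings, fits and left-out libraries were tried as alternatives.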

Additional observations from a re-analysis of the deposited data

Results flagged for a closer look

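A library lay far from the other 4 of its group in 21 of 394 pairs of a named gene and a group, by Dixon's criterion for 5 values; chance alone gives about 1 in 20. Among anti-PD-1 tumours, replicate 3 was the high one for Tgfb3 (53.4 FPKM), F3 (35.8 FPKM) and Mmp11 (11.9 FPKM) and the low one for Il4ra (17.3 FPKM). For these 4 genes the value lay on the side of the vehicle tumours. Replicate 4 was high for Ccl3 (19.8 FPKM), replicate 5 for Havcr2 (14.4 FPKM) and Cxcl16 (58.4 FPKM), and replicate 2 for Nr1h3 (8.16 FPKM) and Pdia4 (70.8 FPKM).

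Among vehicle tumours, replicate 2 stood apart most often. It was high for the muscle genes Acta1 (111.6 FPKM) and Mb (8.54 FPKM), for the keratin gene Krt14 (7.03 FPKM) and for Sema3c (29.7 FPKM), and low for Gzmb (18.4 FPKM) and Tlr2 (10.02 FPKM). Replicate 4 was high for Clec3b (7.85 FPKM), Retnla (5.27 FPKM) and Pcna (191.7 FPKM). Replicate 3 was high for Col16a1 (70.2 FPKM) and low for Ccl3 (3.51 FPKM), and replicate 5 was low for Klf4 (31.5 FPKM). The changes of Tgfb3, F3, Mmp11, Ccl3 and Col16a1 were called with each of these libraries left out.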

How the results depend on the processing

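The count of 2061 called genes was between 1552 and 2309 under other pseudocounts, filters, scalings, array weights and a flat variance prior, and 0 calls reversed in any setting tried. It was 628 (244 higher, 384 lower) with the spread of all 15 libraries, 1028 (546 higher, 482 lower) with the adipocyte covariate and 899 (554 higher, 345 lower) with the muscle covariate; the covariates were chosen after seeing the data, and the cause was not tested. With 1 library left out, 1447 to 2249 genes were called, 792 to 1229 higher and 625 to 1020 lower. Of 173 named genes called, 119 kept the call with the adipocyte covariate, 112 with the muscle covariate and 86 with all 15 libraries. Read depth is unknown, so no counting error can be given for values near 0 FPKM.

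Replicate numbers are shared between the groups only as labels: deviations of same-numbered libraries correlated at -0.178 to 0.0520, and 1 of 5 anti-PD-1 libraries correlated best with its own number. With the replicate block 1552 genes were called, 853 higher and 699 lower.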
